A study of Mus musculus with 18 samples.

Results

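Gene bodies that carry much H3K36me3 were examined in the E14 line of mouse embryonic stem cells, which are pluripotent and were kept in 2i/LIF medium. The set was chosen from the H3K36me3 libraries themselves. A protein-coding gene of 10 kb or more on chromosomes 1 to 19 belonged to it when the mean H3K36me3 over the 1 kb windows of its RefSeq span was at least 1.5 reads per 1000000 mapped reads (RPM) per window in both untreated H3K36me3 libraries. This rule took 4697 of 13323 genes (35.3%), and the other 8626 genes served for comparison. The H3K36me3 level and its correlates in these 2 libraries are therefore given as a description with no test, while H3K27me1, H3K27me2, H3K27me3 and H3K36me2 were not used in the choice.

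Each mark was precipitated from 2 libraries per group. H3K27me1, H3K27me2, H3K27me3, H3K36me2 and H3K36me3 were profiled in untreated cells without a spike-in. H3K27me3 and H3K36me2 were also profiled quantitatively after 7 days with 10 µM of the EZH2 inhibitor EPZ-6438 (EZH2i below) or with the same volume of its solvent DMSO, with Drosophila S2 chromatin added as spike-in at 0.05% of the chromatin. All 18 libraries came from this 1 cell line, and the labels do not say whether the 2 libraries of a group came from separate cultures, so p-values measure only the spread between libraries. Estimated mouse reads ranged from 16.3 to 84.4 M (1000000 reads) per library, except for H3K27me3 after EZH2i, where they were 0.750 and 1.34 M. The 2 quantitative H3K36me2 libraries numbered 2, one from each arm, stood apart from those numbered 1 over these genes, as described with the results they touch.

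H3K36me3 is placed mainly by SETD2, which travels with elongating RNA polymerase II, so the mark builds up along transcribed genes. NSD1 and related enzymes place H3K36me2 more broadly, in genes and between them. PRC2, whose catalytic subunit is EZH2, places methyl groups on H3K27, with H3K27me3 the mark of Polycomb-repressed chromatin and H3K27me2 spread over much of the genome. PRC2 works poorly on H3 tails that carry H3K36me2 or H3K36me3, and H3K27me1 is known to lie over the bodies of active genes.

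The set began at CpG-dense start sites. A RefSeq promoter entry (build GRCm38.p6) with a strand was matched to 3834 of the 4697 genes and to 6715 of the others, and the matched start lay within 1 kb of the end of the gene span in 90.0% of the former. In the 250 bases before the start, the H3K36me3-high genes held a median of 17 CpG dinucleotides (quartiles 12 and 24) and the other genes 9 (quartiles 3 and 19). At least 10 CpG were present in 83.3% of them, against 61.6% of all 10549 promoters of the same length. TATAAA or its reverse complement TTTATA occurred in 4.85% of them and in 7.90% of all promoters. The sequences below were taken from 4 genes of the set whose start is also the end of the span. They run from 5′ to 3′ on the gene's strand and stop 1 base before the start site, and capitals mark CG, TATAAA and TTTATA. Prmt5 (chr14:54517471-54517720, minus strand) and Polr2a (chr11:69758634-69758883, minus strand) stand for strongly marked genes, Glp1r (chr17:30901617-30901866, plus strand) had the highest H3K27me3 at its start, and Slc10a1 (chr12:80968706-80968955, minus strand) had H3K27me2 and H3K36me2 mainly in the 5′ part of the gene.
Prmt5: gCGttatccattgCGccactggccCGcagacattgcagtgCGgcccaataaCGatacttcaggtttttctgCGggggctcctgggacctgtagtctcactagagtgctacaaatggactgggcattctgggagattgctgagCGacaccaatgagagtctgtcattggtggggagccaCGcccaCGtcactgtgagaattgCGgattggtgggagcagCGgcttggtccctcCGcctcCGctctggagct
Polr2a: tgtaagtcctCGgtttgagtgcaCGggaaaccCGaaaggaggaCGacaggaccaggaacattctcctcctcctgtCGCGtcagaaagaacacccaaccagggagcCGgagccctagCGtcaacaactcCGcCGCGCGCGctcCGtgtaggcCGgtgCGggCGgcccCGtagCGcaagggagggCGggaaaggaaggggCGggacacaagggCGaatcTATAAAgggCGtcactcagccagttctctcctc
Glp1r: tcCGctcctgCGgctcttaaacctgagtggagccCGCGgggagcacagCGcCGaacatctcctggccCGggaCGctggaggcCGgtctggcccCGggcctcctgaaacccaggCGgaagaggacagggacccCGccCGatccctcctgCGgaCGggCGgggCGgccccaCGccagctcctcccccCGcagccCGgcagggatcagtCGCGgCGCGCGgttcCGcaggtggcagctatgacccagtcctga
Slc10a1: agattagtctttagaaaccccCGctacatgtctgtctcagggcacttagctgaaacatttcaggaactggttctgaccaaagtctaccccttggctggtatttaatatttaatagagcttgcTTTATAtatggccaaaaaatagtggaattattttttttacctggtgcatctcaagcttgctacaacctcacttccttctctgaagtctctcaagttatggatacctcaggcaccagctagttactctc
These windows held 13 CpG in Prmt5, 23 in Polr2a, 26 in Glp1r and 1 in Slc10a1. Among the set, the 642 promoters with fewer than 10 CpG had more H3K36me2 within 1 kb of the start, at 2.16 and 1.81 times the library's genome mean in the untreated libraries, than the 3192 CpG-rich ones, at 1.61 and 1.29 times. The CpG-poor starts were above the CpG-rich ones in untreated H3K27me3 too, at 0.72 and 0.69 times the genome mean against 0.54 in each library. After DMSO the gap was smaller, at 0.97 and 0.93 against 0.91 and 0.88. After EZH2i the CpG-poor starts were lower, at 1.98 in each library against 2.23 and 2.48.

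H3K36me3 over the set ranged from 1.51 to 11.8 RPM per window, with a median of 2.55 (quartiles 2.00 and 3.38), and the median of the other genes was 0.615. Across the set the 2 H3K36me3 libraries ranked genes alike, with a Spearman rho of 0.954 over 4697 genes. A further 511 genes passed in 1 library only, 301 in replicate 1 and 210 in replicate 2. Hjurp, which encodes the chaperone that deposits the centromeric histone CENP-A (chromosome 1, 88258856 to 88277644), stood highest among the ranked genes at 9.14 and 11.1 RPM. Fasn, the fatty acid synthase gene, held 7.56 and 8.69 RPM. Prmt5, which encodes an arginine methyltransferase, held 6.77 and 8.42, Smg5 of nonsense-mediated mRNA decay 6.63 and 7.51, and Mybbp1a, a nucleolar protein gene, 6.34 and 7.82. The gene Sfi1 exceeded 5 times the genome mean in all 5 marks and was left out of rankings. Just inside the threshold lay Myo1e with 1.5 and 1.63 RPM, Akr1b10 with 1.77 and 1.5, and Irs2 with 1.59 and 1.5. Just outside lay Wdr89 with 1.51 and 1.5, Alg8 with 1.5 and 1.88, and Pomgnt2 with 1.5 and 1.66, whose lower value was under the threshold before rounding.

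The set was made of shorter genes. Its median length was 25.9 kb (from 10 to 410.0 kb) against 40.4 kb for the other genes. The rule took 45.2% of genes from 10 to 20 kb, 41.3% from 20 to 50 kb, 30.1% from 50 to 100 kb, 17.0% from 100 to 200 kb and 4.55% (43 of 945) of longer ones. Ttc28 at 410.0 kb, the zinc transporter gene Slc39a11 at 405 kb and the cytoskeletal linker gene Dst at 401 kb were its longest members. Dst stood above the other 2, at 2.05 and 2.09 RPM against 1.52 and 1.65 for Ttc28 and 1.57 and 1.74 for Slc39a11. The share of genes taken ran from 21.7% on chromosome 14 to 46.0% on chromosome 11. Another protein-coding gene overlapped 1024 members (21.8%) and 16.9% of the other genes, and windows shared by overlapping genes counted for both.

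Most genes of the lists for pluripotency and cell division were inside the set, and no gene of the list of developmental transcription factors was. Counts below are of genes of 10 kb or more, to be read beside the 35.3% of all genes. Members made up 17 of 18 genes of the pluripotency network, 34 of 42 of DNA repair and replication, 32 of 43 splicing factors, 25 of 34 of cell cycle and mitosis, 20 of 27 of RNA polymerase II elongation, and 21 of 29 chromatin remodellers. Of genes that write, erase or read H3K36 methylation 23 of 29 were members, of DNA methylation genes 11 of 13, and of Polycomb genes 15 of 26. None of 40 developmental transcription factors and none of 13 germline genes that depend on DNA methylation was a member. By symbol family, chosen after the data were seen, 25 of 28 proteasome subunit genes (Psm), 27 of 35 translation initiation factor genes (Eif), 124 of 330 Zfp zinc finger genes, 3 of 72 potassium channel genes (Kcn) and 0 of 22 olfactory receptor genes were members.

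The labelled cell type was checked on markers. Of 11 embryonic stem cell markers, 9 were members, among them Tfcp2l1 with 3.85 and 4.25 RPM, Sall4 with 3.60 and 3.95, and Zfp42 (the Rex1 gene) with 3.16 and 2.86. The other 2, Lin28a and Dnmt3l, held 1.21 and 1.43 and 1.12 and 1.23 RPM. Members were 0 of 11 fibroblast, 0 of 10 neural, 0 of 10 endoderm and liver and 1 of 10 blood cell markers. That 1 gene was Kit, a receptor kinase gene of germ and blood cells, at 2.43 and 2.45 RPM. Esrrb, a naive pluripotency factor gene of 161 kb, was unlike other stem cell markers in that it held 1.2 and 1.19 RPM of H3K27me3 over its span beside 2.23 and 2.49 RPM of H3K36me3.

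Among the marks not used in the choice, H3K27me1 was the one most raised over the same bodies. Member bodies held 1.24 and 1.01 RPM per window of H3K27me1, 2.37 and 1.92 times the genome mean, while the other bodies held 0.514 and 0.527. The log2 ratio of members to other genes was 1.10 ± 0.24 (SD, n = 2 libraries), with 1.27 in replicate 1 and 0.93 in replicate 2. Over flanks 5 to 20 kb outside the genes and clear of other genes, the body exceeded the flank by 0.65 ± 0.09 on the log2 scale, and by 0.40 with all flank windows. Authors' H3K27me1 peaks covered 83.5% of member windows and 21.8% of the windows of other genes. H3K27me1 rose with H3K36me3 inside the set. The median was 2.31 and 1.86 times the genome mean at 2 to 3 RPM of H3K36me3 (mean of 2 libraries) and 3.53 and 2.61 times at 4 RPM or more. At 1.5 to 2 RPM, where 1180 of 1409 genes were members, it was 1.88 and 1.59 times. The Spearman rho between the marks was 0.623 over 4697 genes, as a description across genes that share libraries.

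H3K27me3 was low over the set. Member bodies held 0.299 and 0.266 RPM, against 0.685 and 0.670 over other bodies. The log2 ratio was -1.26 ± 0.10, and body minus flank was -1.33 ± 0.12 on the log2 scale. The typical member lay lower than this mean, with a gene median of 0.23 and 0.20 times the genome mean. H3K27me3 peaks covered 8.92% of member windows and 30.7% of other windows. Of the members, 369 (7.86%) had 50% or more of the body in such peaks, against 38.5% of the other genes. Celsr2, a planar polarity cadherin gene (chromosome 3, 108390848 to 108416069), held 6.86 and 6.32 RPM of H3K27me3 beside 2.16 and 2.48 RPM of H3K36me3. Jag2, a Notch ligand gene, held 5.62 and 5.40 RPM, and Barhl1, a neural homeobox gene, 5.24 and 5.56 RPM. At the other extreme stood Mtf2, whose product is an accessory subunit of PRC2, with 0.0128 and 0.00548 RPM, and the mitochondrial chaperone gene Hspa9 with 0.00232 and 0.0166 RPM. These values rest on few reads, so the rank among the lowest genes is uncertain. In these libraries 1 read in 1 window is worth 0.0394 and 0.0471 RPM, and Hspa9 spans 17 windows.

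H3K27me2 and H3K36me2 were moderately higher over members than over other genes and no higher than around them. For H3K27me2, members held 0.867 and 0.744 RPM, the log2 ratio to other genes was 0.50 ± 0.17, and body minus flank was -0.02 ± 0.04. For H3K36me2, members held 0.933 and 0.814 RPM, the log2 ratio to other genes was 0.53 ± 0.14, and body minus flank was -0.41 ± 0.03. In the quantitative H3K36me2 libraries body minus flank was -0.36 in DMSO replicate 1 and -0.43 in EZH2i replicate 1, but -0.14 and -0.16 in those numbered 2. For the other genes it was negative too, at -0.18 and -0.15 in the untreated H3K36me2 libraries. It was -0.17 in DMSO replicate 1 and -0.13 in EZH2i replicate 1 for them, and -0.14 and -0.11 in those numbered 2. The contrast in H3K36me2 to other genes was smaller over gene medians, at 1.51 and 1.31 times the genome mean for members against 1.29 and 1.3. Within the set H3K36me2 moved with H3K27me2 (rho 0.863) and with H3K27me3 (rho 0.852) and against H3K36me3 (rho -0.166), whereas among the 8626 other genes its rho with H3K36me3 was 0.623. The correlations are across genes and share libraries and base composition.

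**Figure D1:**
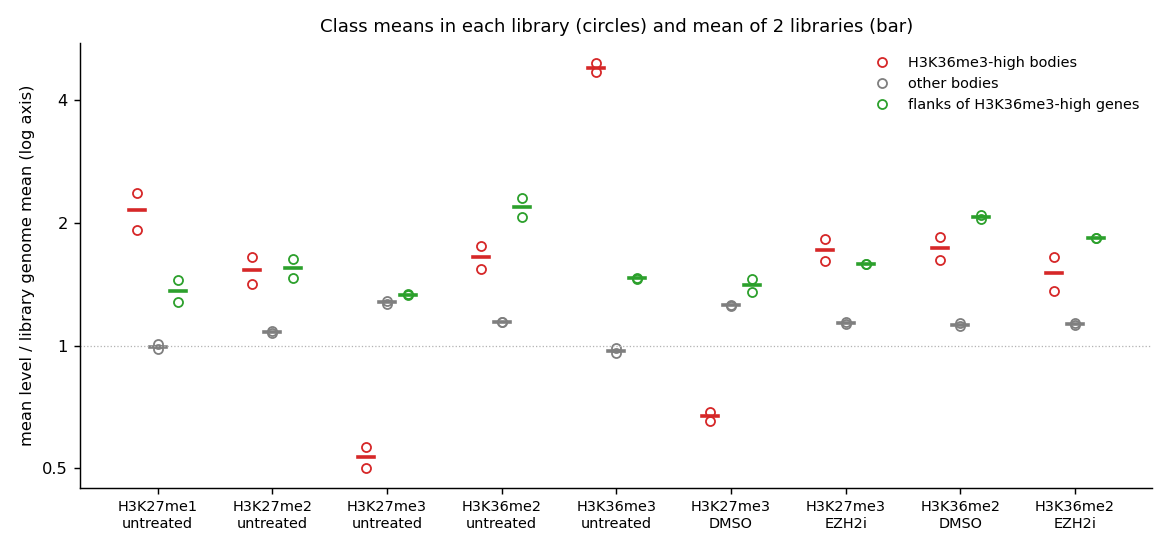
Mean level over H3K36me3-high bodies (red), over the other bodies (grey) and over the flanks of the H3K36me3-high genes (green), divided by the library's genome mean, on a log axis. Circles are the 2 libraries of a group and bars their mean. H3K27me3 lies below 1 over the H3K36me3-high bodies in untreated and DMSO libraries (0.50 to 0.69) and above 1 after EZH2i (1.83 and 1.62).

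Single genes departed from these averages. Hjurp was also the highest member in H3K27me1, at 5.86 and 4.46 RPM, and it held 2.12 and 1.71 RPM of H3K27me2. Its overlapping neighbour Mroh2a (chromosome 1, 88226991 to 88262289) held 2.62 and 2.59 RPM of H3K27me2 and 4.42 and 3.24 RPM of H3K27me3. Both spans cover 88258856 to 88262289, where windows counted for both genes, so the 2 are not separate examples. Whether Mroh2a meets the rule without the shared windows was not tested. Pwp2, a ribosome biogenesis gene, had 3.31 and 2.30 RPM of H3K27me1. Zfp42 and Srsf3, which encodes a splicing factor, were lowest in H3K27me1, with 0.176 and 0.104 RPM and 0.228 and 0.164 RPM. Both nevertheless held over 2 RPM of H3K36me3 in each library. Zfp42 was also among the lowest in H3K36me2, at 0.116 and 0.0652 RPM, with Taf1d, of the RNA polymerase I factor SL1, at 0.123 and 0.0800 RPM. The lamin A/C gene Lmna held 2.65 and 2.14 RPM of H3K36me2 and the ammonium transporter gene Rhbg 2.66 and 2.2 RPM. Eif2s2, for the beta subunit of translation factor eIF2, and the helicase gene Dhx9 were lowest in H3K27me2, at 0.0221 and 0.0334 RPM and 0.0262 and 0.0364 RPM.

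Most marks changed along the body, and the direction differed between marks. The body, without its outer 1 kb, was divided into 3 parts. The first and last were of equal size, and the middle took any windows left over. The last part was compared with the first within each library for the genes with a known strand (3834 members). In short genes, such as Zscan10 and Srsf3 with 10 windows each, the outer parts held few windows. H3K36me3 itself rose by a median of 0.66 ± 0.07 on the log2 scale and was higher at the end in both libraries in 3179 genes. It peaked in the 19th of 20 body bins at 6.53 and 7.18 times the genome mean, from 1.99 and 1.93 in the first. It still stood at 4.91 and 5.24 in the first kb past the end and at 2.07 and 2.08 in the fifth. Windows inside another protein-coding gene were left out there, which left 3064 and 2115 members at these 2 points.

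H3K27me1 followed the same direction. The end was higher by a median of 0.40 ± 0.07, and limma called it higher in 1849 members (48.2%) and lower in 222 (5.79%), beside 35.5% and 9.12% of all genes. Mean H3K27me1 was 1.55 and 0.93 times the genome mean within 1 kb of the start and 2.83 and 2.28 times in the last part. Zfp981, a zinc finger gene, went from 0.214 and 0.149 RPM in the first part to 2.49 and 2.29 in the last (log2 3.41 ± 0.12 (SE), limma adjusted p = 0.0134). Aida, an axin interactor gene, went the other way, from 3.44 and 3.53 to 1.03 and 0.849 RPM (log2 -1.85 ± 0.12 (SE), limma adjusted p = 0.0134). Among the stem cell genes, Tfcp2l1 rose from 0.683 and 0.421 to 1.72 and 1.17 RPM and the maintenance methyltransferase gene Dnmt1 from 1.18 and 0.756 to 2.07 and 1.57 RPM.

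H3K27me2 rose less, by a median of 0.23 ± 0.02 (0.14 with a pseudocount of 0.5 RPM), and stood at 1.01 and 0.84 times the genome mean within 1 kb of the start, against 1.77 and 1.5 times in the last part. It was called higher at the end in 1339 members (34.9%) and lower in 388, beside 27.7% and 11.8% of all genes. Zscan10, a zinc finger gene of the pluripotency network, held 0 and 0.0216 RPM in the first part and 1.66 and 0.971 in the last. Slc10a1, the bile acid transporter gene whose CpG-poor promoter is printed above, fell from 1.2 and 0.933 RPM to 0.108 and 0.156 RPM, while its H3K36me3 went from 1.07 and 1.01 RPM to 3.58 and 3.12 RPM.

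For H3K27me3 the calls in the set were 763 higher (19.9%) and 432 lower (11.3%) at the end, beside 19% and 16.7% of all genes. The median rise was 0.19 ± 0.05, on body levels with a median of 0.123 and 0.105 RPM, and it was 0.04 with a pseudocount of 0.5 RPM. The share called higher was thus near that of all genes. Single genes were split: Xntrpc, a readthrough gene, went from 0.0394 and 0.0942 RPM to 2.97 and 2.87 RPM, and Npr1, a natriuretic peptide receptor gene, from 3.10 and 4.31 RPM to 0.0493 and 0.0236 RPM. The prothrombin gene F2 fell from 2.64 and 2.08 RPM to 0.0338 and 0.0202 RPM.

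H3K36me2 ran against H3K36me3 in the untreated libraries. It was lower at the end by a median of 0.26 (log2 -0.26 ± 0.01), and limma called 1617 members (42.2%) lower and 408 (10.6%) higher, beside 31.1% and 20.3% of all genes. Dnmt1 went from 1.34 and 1.23 RPM to 0.462 and 0.324 RPM (log2 -1.61 ± 0.12 (SE), limma adjusted p = 0.0104), opposite to its H3K27me1. Srsf3 fell from 0.589 and 0.538 RPM to 0.0883 and 0 RPM. Tyms, the thymidylate synthase gene, rose from 0.170 and 0.178 RPM to 0.882 and 0.821 RPM. This 5′ bias was not general to all H3K36me2 libraries. The median was -0.13 in DMSO replicate 1 and -0.18 in EZH2i replicate 1, but 0.04 in DMSO replicate 2 and 0.05 in EZH2i replicate 2. The DMSO libraries were also put in place of the untreated ones, a choice made after the data were seen. Limma then called 567 of 3834 members lower and 466 higher, beside 18.4% and 20.2% of all genes. Both shares of members were below those of all genes, unlike the share called lower in the untreated libraries. The H3K36me2 level also followed H3K36me3 differently. From 1.5 to 2 RPM (1409 genes, of which 1180 were members) up to 4 RPM or more of H3K36me3, the median relative H3K36me2 level shifted. It went from 1.52 to 1.34 in DMSO replicate 1 and from 1.59 to 1.91 in DMSO replicate 2.

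**Figure D2:**
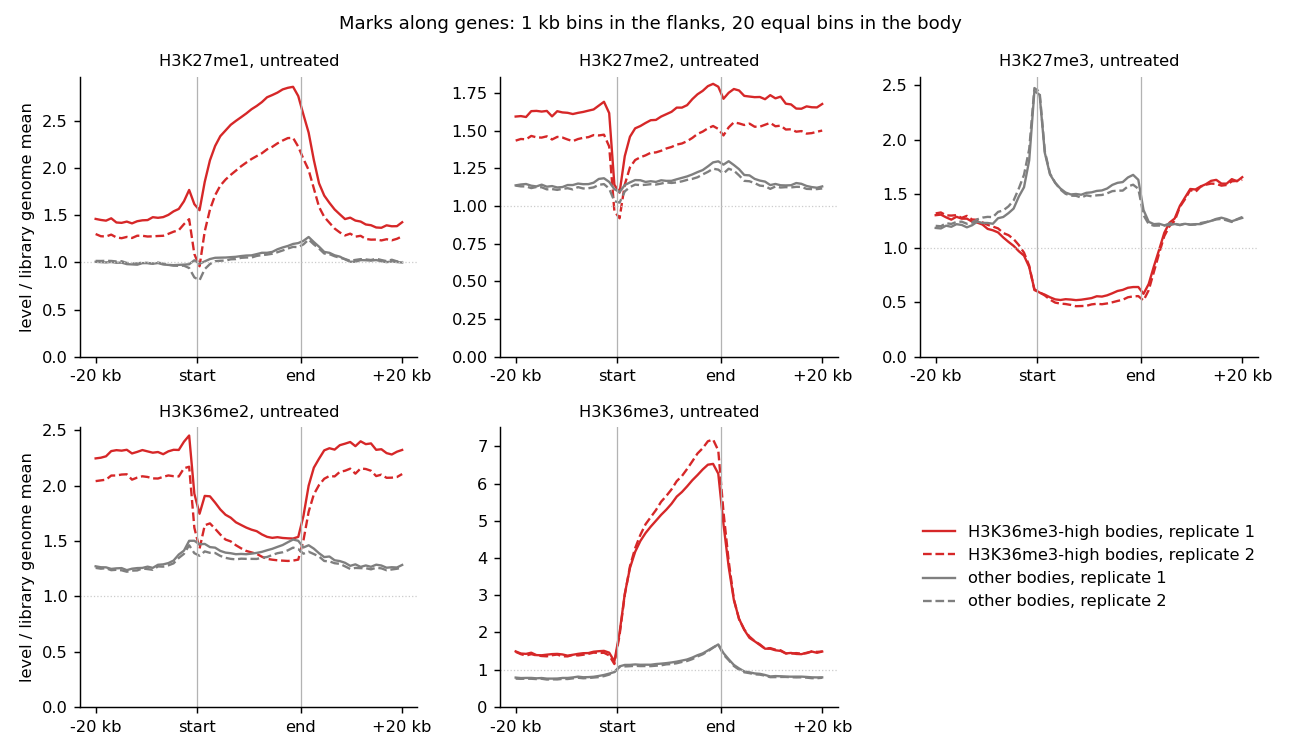
Mean level of each mark in untreated cells, divided by the library's genome mean, from 20 kb before the start to 20 kb past the end. The body is scaled to 20 equal bins. Flank windows inside another protein-coding gene are left out, so the outermost points rest on 1782 and 1547 of the 3834 H3K36me3-high genes. Red lines are H3K36me3-high genes and grey lines the other genes, solid for replicate 1 and dashed for replicate 2. H3K36me3 and H3K27me1 climb to the 19th bin, and H3K27me3 is low between start and end. H3K36me2 dips around the start, from 2.45 and 2.17 at 2 kb before it to 1.75 and 1.43 in the first body bin. It stands at 1.90 and 1.66 in the third bin and at 1.54 and 1.33 in the last.

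Start sites differed as well. Within 1 kb of the start, members held H3K27me3 at 0.57 times the genome mean in each untreated library and at 0.92 and 0.89 times in the DMSO libraries, and the other genes at 2.80 and 2.81 times in the untreated and 3.70 and 3.60 times in the DMSO libraries. Of 3834 member starts, 495 (12.9%) lay in an H3K27me3 peak, against 49.9% of other starts, while 77.0% lay in an H3K36me2 peak, against 54.1%. Glp1r, the receptor gene for the hormone GLP-1, held 8.57 and 6.86 RPM of H3K27me3 there. Mfsd4a, a transporter-family gene, held 6.84 and 7.40 RPM, and Dnaja4, an Hsp40 chaperone gene, 6.54 and 7.37 RPM. Around the set, H3K27me3 returned to 1.3 and 1.32 times the genome mean 20 kb before the start. It stood at 1.65 and 1.63 times 20 kb past the end. Flank windows inside another protein-coding gene were left out, so these points rest on 1782 and 1547 of the 3834 members.

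**Figure D3:**
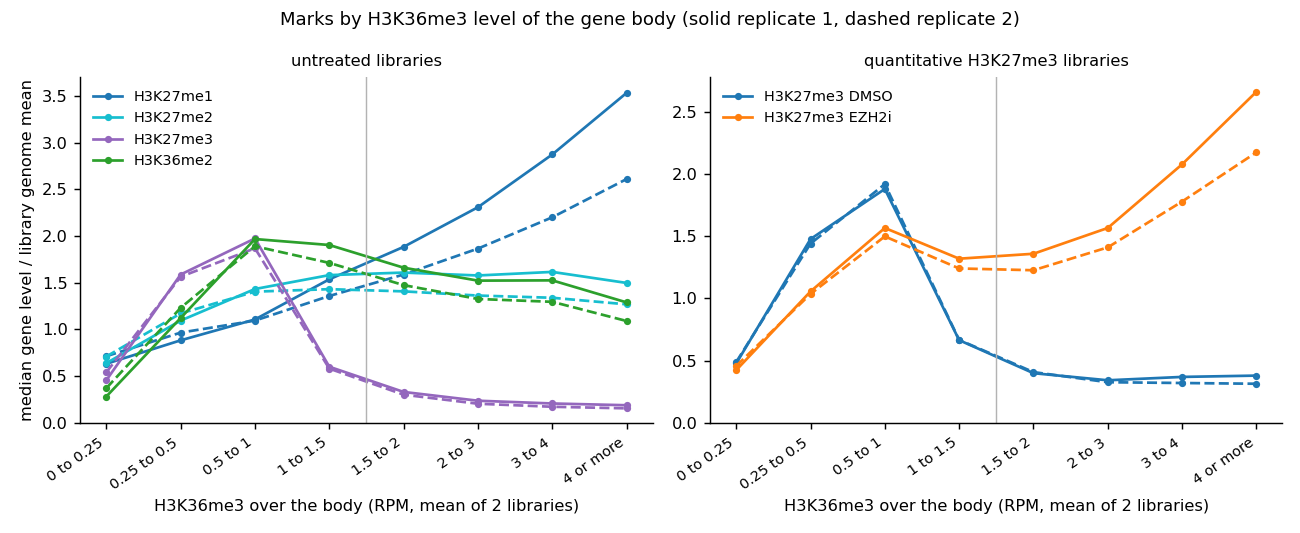
Median level of each mark over gene bodies, divided by the library's genome mean, for all 13323 genes grouped by H3K36me3 (RPM, mean of 2 libraries); the vertical line marks the 1.5 RPM threshold, solid lines replicate 1 and dashed lines replicate 2. H3K27me1 rises across all groups, H3K27me3 peaks at 0.5 to 1 RPM and is lowest at 4 RPM or more (0.19 and 0.15), while H3K27me3 after EZH2i climbs to 2.66 and 2.18.

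H3K27me3 fell over every tested member after EZH2i. On the spike-in scale, where values are reads times the deposited factor, member bodies averaged 35.3 and 24.7 after DMSO and 0.175 and 0.113 after EZH2i. The arms did not overlap in any of 4691 tested members, and limma called all 4691 lower (adjusted p under 0.05). The background was 100% of 12981 tested genes, so this count says nothing particular to the set. The other 6 members had no read in an EZH2i library and were called too when genes at 0 were kept. The member median was -5.98 on the log2(value + 0.1) scale and that of all genes -7.19, and with a pseudocount of 1 they were -3.83 and -4.71. Nfkb2, an NF-kappa-B subunit gene, fell furthest, from 371 and 268 to 0.154 and 0.198 (log2 -10.16 ± 0.35 (SE), limma adjusted p = 1.14e-177, from a fit that gave every gene the same SE). Tfcp2l1 went from 9.38 and 5.03 to 0.187 and 0.0973, Dnmt1 from 22.0 and 16.2 to 0.228 and 0.131, and Fasn from 24.7 and 10.8 to 0.497 and 0.198.

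What remained was distributed differently. Relative to the library's genome mean, members stood at 0.69 and 0.66 after DMSO and at 1.83 and 1.62 after EZH2i. Their flanks stood at 1.36 and 1.46 after DMSO and at 1.59 and 1.58 after EZH2i, so body minus flank on the log2 scale went from -0.98 and -1.15 to 0.20 and 0.03 (-0.06 and -0.17 with all flank windows). The log2 ratio of members to other genes went from -0.91 ± 0.04 to 0.59 ± 0.12, with no overlap between arms (exact two-sided permutation p = 0.33, the lowest value this design can give). With each library divided by its genome mean, limma called 3926 members higher and 51 lower, beside 47.4% higher and 12.4% lower of all genes, and the member median was 2.01 against 0.63 for all genes on the log2 scale. Prpf8, the core spliceosome gene, stood at 0.27 and 0.24 times the genome mean after DMSO and at 3.33 and 1.48 times after EZH2i. Celsr2, which was rich in H3K27me3, went from 14.2 and 12.1 times to 6.66 and 4.68 times.

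These EZH2i libraries were shallow. The median member body held 19 and 29 window reads in them, against 93 and 109 after DMSO, and no input library was used here, so the part of unspecific precipitation in the remaining reads was not tested. The remaining signal rose with H3K36me3. Its median was 1.36 and 1.23 times the genome mean at 1.5 to 2 RPM, where 1180 of 1409 genes were members. It was 1.57 and 1.41 times at 2 to 3 RPM and 2.66 and 2.18 times at 4 RPM or more, where all were members. After DMSO the lowest and highest of these groups stood at 0.40 and 0.41 and at 0.38 and 0.31. Across the set its rho was 0.690 with H3K27me3 after DMSO, 0.631 with untreated H3K27me2, 0.625 with H3K36me2, 0.592 with untreated H3K27me3, 0.410 with H3K36me3 and 0.159 with H3K27me1. Among the other genes its rho with H3K36me3 was 0.467. At the start it stood at 2.19 and 2.40 times the genome mean, against 0.92 and 0.89 times after DMSO, still below the 3.71 and 4.49 times of other genes.

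**Figure D4:**
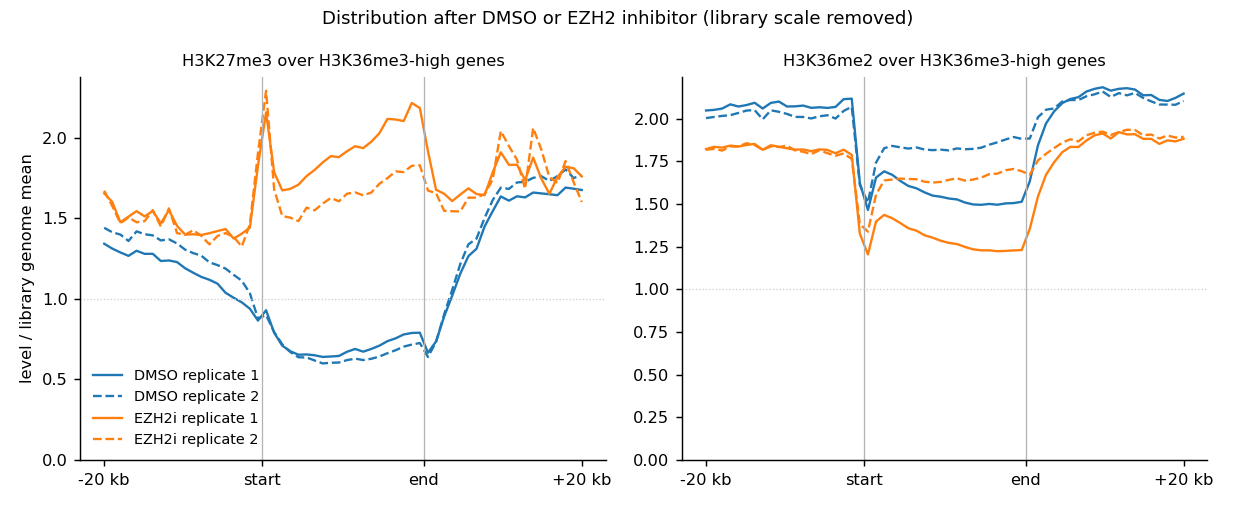
H3K27me3 (left) and H3K36me2 (right) over H3K36me3-high genes after DMSO (blue) or EZH2i (orange), divided by the library's genome mean. Solid lines are replicate 1 and dashed lines replicate 2. Flank windows inside another protein-coding gene are left out, so the outermost points rest on 1782 and 1547 of 3834 genes. H3K27me3 over the body lies below 1 after DMSO and above 1 after EZH2i, where it falls from 2.16 and 2.29 in the first body bin to 1.71 and 1.48 in the fifth and stands at 2.19 and 1.83 in the last. H3K36me2 is lower after EZH2i in each same-numbered pair, and from the fifth to the last bin it falls in replicate 1 libraries and rises in replicate 2 libraries of both arms.

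H3K36me2 over the set did not pass the test after EZH2i. On the spike-in scale member bodies averaged 554 and 416 after DMSO and 580 and 394 after EZH2i, and the ranges overlapped. Of 4697 members, 0 were called by limma, 0 had an unadjusted p under 0.05 and limma-voom on recovered reads called 0, beside 0% of 13198 genes. The member median was 0.00 and that of all genes 0.07 on the log2 scale, and with each library left out they ranged from -0.27 to 0.25 and from -0.28 to 0.43. The spread between libraries was wide, with an SE of 0.48 for each gene, so changes of that size were not detectable at this spread.

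Relative to the library's genome mean, H3K36me2 over members went from 1.63 and 1.85 to 1.37 and 1.65, and the log2 ratio to other genes from 0.62 ± 0.15 to 0.41 ± 0.21 (exact two-sided permutation p = 0.667). Flanks of the members went from 2.09 and 2.04 to 1.84 in each library, so the relative fall was not confined to the bodies. Limma called 0 members, beside 0% of all genes. In that fit 571 members had an unadjusted p under 0.05, but the share of all genes was not counted, so this says nothing particular to the set. The median was -0.20 for members and -0.13 for all genes. Both EZH2i libraries lay below both DMSO libraries in 1929 members (41.1%) and above them in 3 (0.0639%), beside 41.6% and 16.2% of all genes. The share that was lower was thus near that of all genes by this count, which sets aside the replicate numbers. A fit with the replicate number as a block called 2681 members lower (57.1%) and 3 higher, beside 34.9% and 12% of all genes. On the spike-in scale the block gave 7 members higher (0.149%) and 0 lower, beside 14.5% and 0.0682% of all genes. The labels do not say that the numbers pair libraries. The change in the ratio to other genes, -0.21, went to -0.06 without EZH2i replicate 1 and to -0.36 without EZH2i replicate 2, and the member median to -0.05 and -0.36.

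The 3 members with both EZH2i libraries higher were Folr1, a folate receptor gene, from 1.80 and 1.84 times the genome mean to 2.01 and 2.30, the amino acid enzyme gene Cth from 0.99 and 0.98 to 1.00 and 1.08, and the zinc finger gene Zfp445 from 1.03 and 1.10 to 1.10 and 1.11. Slc4a2, an anion exchanger gene, fell furthest among those with separate arms, from 2.56 and 2.26 to 1.65 and 1.63 times (log2 -0.54 ± 0.09 (SE), limma adjusted p = 0.184). Abhd4, a lipase gene, went from 1.59 and 1.40 to 1.07 and 1.01, and the citrate transporter gene Slc13a5 from 2.00 and 2.2 to 1.25 and 1.77. Across genes, the rho of the relative change with H3K36me3 was -0.002 within the set (4697 genes) and -0.732 among the other genes (8626). This change combines the 2 libraries of each arm, whose levels followed H3K36me3 differently. Median relative levels were compared between 1.5 to 2 RPM of H3K36me3 (1180 of 1409 genes were members) and 4 RPM or more. In replicate 1 they fell from 1.518 to 1.343 after DMSO and from 1.303 to 1.082 after EZH2i. In replicate 2 they rose from 1.589 to 1.907 and from 1.403 to 1.775. From the lower to the higher group, the gap between the arms thus widened in replicate 1 and narrowed in replicate 2. The rho was not tested by replicate number, so -0.002 does not exclude opposite trends.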

How the data were processed

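ChIP-seq tracks of 18 libraries were used, in groups of 2 taken from the labels. The deposited track values are log2 of 1 plus reads times a factor, in 1 kb windows every 500 bp. With the 1 removed on the linear scale, 100% of the deposited window values came out whole when divided by the library's step (tolerance 0.02). In untreated libraries the factor gives RPM, and in quantitative libraries it is read here as a spike-in factor set by the authors, whose derivation is not given in the sources used here. Per the submitters' processing notes, builds mm10 and dm3, Trim Galore 0.4.2, Bowtie2 2.2.6.2 and SICER were used, with no roles stated. The deposited peak lists carry the authors' own score per peak, and a window counted as in a peak at 500 bp of overlap.

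Linear values were averaged over non-overlapping windows whose midpoint lay in the RefSeq span (GRCm38.p6). Reads touching 2 windows counted in both. Genome means are over autosomal windows. For the EZH2i comparisons, genes with a value above 0 in all 4 libraries were fitted with limma 3.58.1 (R 4.3.3). The scale was log2(value + 0.1) for spike-in values and log2(value + 0.05) for levels relative to the library mean. For the end-to-start calls, limma tested the within-library log2 ratio of last to first part against 0, over 2 untreated libraries per mark. Those fits used log2(RPM + 0.05) and all genes with a known strand, also genes at 0. Benjamini-Hochberg adjustment was over all tested genes of 10 kb or more, with calls at an adjusted p under 0.05. A fold on these scales understates the change of low genes. Strand came from the promoter table, so direction along genes covers 10549 genes. The fits were run on simulated counts with known changes in some genes. The simulation held no global fall and no shift shared by same-numbered libraries, so it does not cover these features of the data. Genes named were the extremes per mark and comparison, the genes at the threshold, the longest, up to 4 per gene list, and all markers used for the check. Genes chosen outside that rule, as further examples of values, were named after their values were seen. Members and lists were chosen with earlier results of these data known. Alternatives were another pseudocount, filter, summary, threshold, test, scale or flank, overlapping genes left out, a replicate block and each library left out.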

Additional observations from a re-analysis of the deposited data

How the results depend on the processing

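Calls of members lower in H3K27me3 after EZH2i ranged from 4451 to 4697 under other pseudocounts, filters, tests, summaries and the replicate block, and from 4691 to 4696 with each library left out. Relative to the library mean the direction turned, with 3977 calls, mostly higher; dividing by the library mean removes the global fall. For H3K36me2 the replicate block gave 7 calls on the spike-in scale and 2684 on the relative scale, against 0 without it; over all genes it called 1916 higher and 9 lower of 13198 on the spike-in scale, and 1582 higher and 4606 lower on the relative scale. Same-numbered libraries deviated together with r = 0.78 and 0.829 for H3K36me2 and 0.118 for H3K27me3, over 2 pairs per mark, which the labels do not describe as paired. All other H3K36me2 settings gave 0 calls among members.

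The H3K36me2 end-to-start calls dropped to 1033 in the DMSO libraries from 2025; DMSO replicate 2 ran the other way. With a pseudocount of 0.5 RPM the median end-to-start change was 0.29 for H3K27me1, 0.14 for H3K27me2, 0.04 for H3K27me3 and -0.16 for H3K36me2. Member-to-other log2 ratios moved for H3K27me3 to -1.55 at a threshold of 2 RPM, -2.22 over gene medians and -1.37 without overlapping genes; for H3K36me2 to 0.37 at 2 RPM and 0.12 over gene medians; for H3K27me2 to 0.33 over gene medians. With all flank windows, body minus flank was 0.40 for H3K27me1, -0.28 for H3K36me2 and 0.77 for H3K36me3, against 0.65, -0.41 and 1.72 with flanks clear of genes. Leaving out each library, it ranged from -0.051 to 0.012 for H3K27me2, so its sign rests on 1 library. The relative H3K36me2 change of members to other genes ranged from -0.36 to -0.06 with each library left out. It was -0.26 in replicate 1 libraries and -0.17 in replicate 2 libraries, a split chosen after seeing the data. The causes were not tested. The rank of genes in H3K27me3 after EZH2i rests on few reads.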
